A study of Mus musculus with 40 samples.

Results

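The miRNAs described here come from the upstream part of the imprinted Dlk1-Dio3 locus of the mouse, which carries them in and between Meg3, the transcript opposite to Rtl1 (anti-Rtl1) and Rian. They were chosen by position and not by a measured value, though earlier results of these data were known at the time. The 19 precursors, in the table's names, are mmu-mir-770 in Meg3, then mmu-mir-673, mmu-mir-493, mmu-mir-337, mmu-mir-3544, mmu-mir-540, mmu-mir-665, mmu-mir-3070-1 and mmu-mir-3070-2, then mmu-mir-431, mmu-mir-433, mmu-mir-127, mmu-mir-434, mmu-mir-432, mmu-mir-3071 and mmu-mir-136 at Rtl1, and mmu-mir-341, mmu-mir-1188 and mmu-mir-370 in Rian. Every arm listed for these precursors was taken. This gave 37 of the table's 2128 miRNA rows, or 36 of 1978 mature miRNAs from 19 of 1234 precursors. The study sequenced small RNA of the CA1 region of the hippocampus from CamKIIδC transgenic (TG) mice, a heart failure model that overexpresses the δC isoform of calcium/calmodulin-dependent kinase II, and from wild-type (WT) littermates. All animals had a C57Bl/6J background. The groups were WT mice of 3 months (n = 5), TG mice of 3 months (n = 9), WT mice of 6 months (n = 15) and TG mice of 6 months (n = 11), with 1 library per mouse. Males and females were used, but sex and litter are not given per library, and the promoter of the transgene is not given in the sources used here. The 3-month mice WT 1 and WT 2 have a wild-type title but a genotype entry of TG, and their titles were followed.

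The Dlk1-Dio3 locus is imprinted. Its non-coding RNAs, including the members on the strand of Meg3 and Rian, are made from the maternally inherited chromosome. Dlk1, Rtl1 and Dio3 are made from the paternal copy. Most of the locus' miRNAs lie in a downstream cluster in Mirg, and the upstream hairpins treated here include those that lie opposite to the Rtl1 coding sequence and are fully complementary to it. Each hairpin is cut into a 5p and a 3p arm, and the seed, bases 2 to 8 of the arm, directs target recognition. The locus is active in brain, and several of its miRNAs are known from neurons.

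All 36 mature arms were found in the RefSeq miRNA table (build GRCm38.p6). The hairpins run over 54.6 kb from chr12:109563692 (Mir770) to chr12:109618336 (Mir370), and all but Mir3544 and Mir3071 lie on the plus strand. In the GENCODE annotation of that build, Mir770 lies in an exon of Meg3, the hairpins of miR-431, miR-433, miR-127, miR-434, miR-432 and miR-136 lie opposite to an exon of Rtl1, and those of miR-341, miR-1188 and miR-370 lie in introns of Rian. The arms on which the results turn are shown first, with the seed in capitals, since they are the arms that passed a test, their partners and the most abundant arms:
miR-434-5p: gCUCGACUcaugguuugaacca
miR-434-3p: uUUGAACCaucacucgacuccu
miR-341-3p: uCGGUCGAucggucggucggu
miR-341-5p: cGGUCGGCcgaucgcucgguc
miR-493-5p: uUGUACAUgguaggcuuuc
miR-493-3p: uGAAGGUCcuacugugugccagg
miR-136-3p: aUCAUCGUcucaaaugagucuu
miR-136-5p: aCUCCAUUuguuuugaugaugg
miR-127-3p: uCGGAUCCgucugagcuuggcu
miR-370-3p: gCCUGCUGggguggaaccuggu
miR-433-3p: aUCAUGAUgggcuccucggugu

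The Mir434 hairpin lies at chr12:109594506-109594599, Mir136 at chr12:109595327-109595388, Mir127 at chr12:109592846-109592915 and Mir433 at chr12:109591715-109591838. Mir341 lies at chr12:109611500-109611595, Mir370 at chr12:109618258-109618336, and Mir493 at chr12:109580233-109580315, where the annotation has no host gene. Among the 36 arms only the 3p arms of the 2 miR-3070 hairpins had the same seed, and no other seed was shared between members. The arms of the miR-3070 pair differ behind the seed:
miR-3070-3p: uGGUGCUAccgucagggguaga
miR-3070-2-3p: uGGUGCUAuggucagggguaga

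At miR-136 and at miR-337, a hairpin on the minus strand overlaps that on the plus strand, so that their arms are complementary. miR-136-5p and miR-3071-3p are complementary over 20 bases, miR-136-3p and miR-3071-5p over 19, miR-337-5p and miR-3544-3p over 17 and miR-337-3p and miR-3544-5p over 21. The sequences are shown because the arms of the minus strand had almost no counts, as given with the levels:
miR-3071-3p: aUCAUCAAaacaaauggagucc
miR-3071-5p: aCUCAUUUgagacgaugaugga
miR-337-5p: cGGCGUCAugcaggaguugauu
miR-337-3p: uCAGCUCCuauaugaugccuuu
miR-3544-3p: aCUCCUGCaugacgccguuccc
miR-3544-5p: aGAAAGGCaucauauaggagcug

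The libraries held 1926108 to 22892729 miRNA counts (median 10898763), and 3-month libraries were deeper, with medians of 14340558 in WT and 18431486 in TG mice against 9893109 and 9239179 at 6 months. Levels are given as CPM, a library's counts per 1000000 miRNA counts after scaling by trimmed means (TMM). A limit of 3 counts corresponds to 0.131 to 1.56 CPM per library before TMM scaling and covers counting error only. Marker levels are given as CPM without TMM scaling. The neuronal miRNAs miR-124-3p, miR-9-5p and miR-128-3p were present in all 40 libraries, miR-128-3p at no less than 91413 CPM. The heart miRNA miR-208a-3p was at 0 in all groups except TG mice of 3 months, where its highest level was 0.048 CPM. The other muscle miRNAs were counted in every group. Group medians were 506 to 1025 CPM for miR-1a-3p, 3.57 to 16.1 CPM for miR-133a-3p and 7.1 to 9.51 CPM for miR-206-3p. Libraries of a group differed by more than counting noise, with a chi-square per degree of freedom of at least 102, so none was counted as a repeat. In bulk tissue, fewer cells of a type and less RNA per cell cannot be told apart.

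The upstream miRNAs made up a median of 9.67% of a library's miRNA counts (7.42% to 16.4%), which was more than the 78 mature miRNAs of the Mirg cluster (median 4.38%, 3.16% to 6.12%). Their median share was 9.57% in WT and 10.2% in TG mice of 3 months, and 9.59% and 10.0% at 6 months, so the groups overlapped throughout. A single arm, miR-127-3p, held 71.5% to 91.2% of the members' counts. Without it, the members' share was 1.35% to 2.34%.

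Among members, 5 arms led the order of mean CPM over the 40 mice. miR-127-3p had 90245 ± 48434 CPM (SD), miR-434-5p 7326 ± 2353, miR-370-3p 3477 ± 1747, miR-434-3p 2954 ± 1232 and miR-433-3p 1538 ± 401. miR-127-3p lay above every other member arm in all 40 libraries, since its lowest level of 38994 CPM exceeded the highest level of miR-434-5p, 12041 CPM. The ranges of the neighbours miR-434-5p (2710 to 12041 CPM), miR-370-3p (1427 to 7657 CPM) and miR-434-3p (850 to 5226 CPM) overlapped, and they did not separate beyond their spread.

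The remaining members covered a wide range below these. miR-127-5p, miR-770-3p, miR-341-3p, miR-136-3p, miR-337-5p, miR-136-5p and miR-431-3p had means from 112 to 906 CPM. The means of miR-673-3p, miR-493-5p, miR-370-5p, miR-770-5p, miR-540-3p, miR-673-5p, miR-431-5p and miR-433-5p were from 14.4 to 64.7 CPM, and 11 other arms had between 0.052 and 5.76 CPM. Neighbouring hairpins could differ widely. miR-665-3p, 22.6 kb from the start of Mir770, had a mean of 3.71 CPM (0.507 to 10.5), while miR-431-3p, at 26.8 kb, had 112 CPM (59.9 to 200). Of the most abundant arms, miR-127-3p, miR-434-5p, miR-434-3p and miR-433-3p lie opposite to Rtl1 and miR-370-3p lies in Rian.

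**Figure D1:**
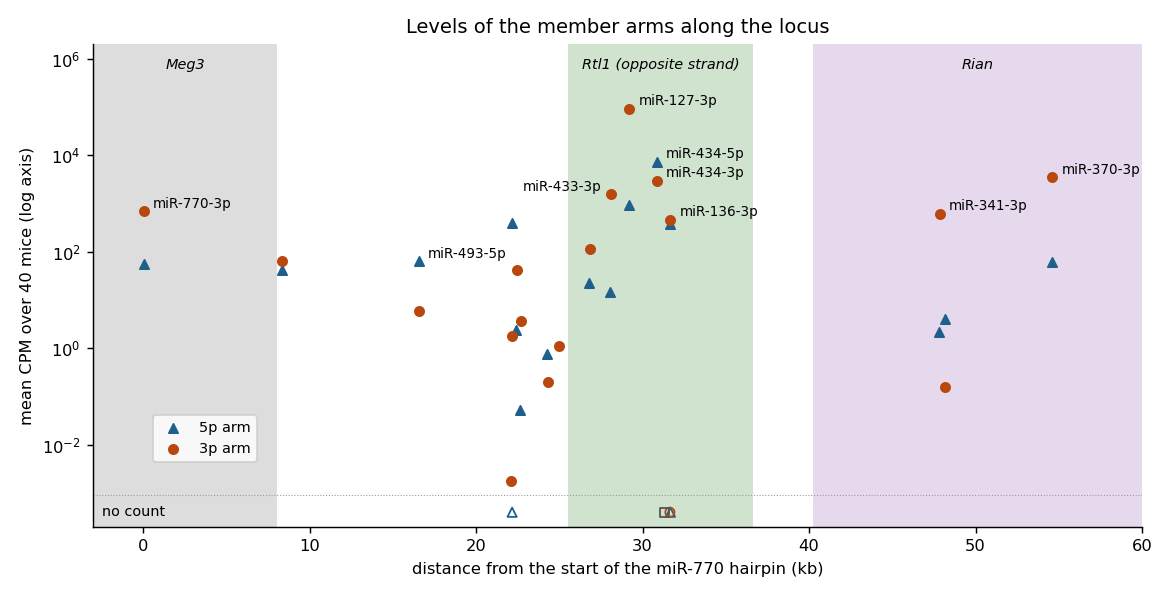
Mean CPM of each member arm over 40 mice (log axis) against the distance from the start of the miR-770 hairpin in kb, with 5p arms as triangles, 3p arms as circles and the annotated spans of Meg3, Rtl1 and Rian shaded. miR-127-3p stands highest at 90245 CPM, and open symbols mark the 4 arms with no count.

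The hairpins on the minus strand had almost no counts. Both arms of miR-3071 and miR-3544-5p had 0 counts in all 40 libraries, and miR-3544-3p had 2 counts in all. Such a 0 allows up to 0.00639 CPM over the summed libraries, without TMM scaling. miR-432, on the plus strand, also had 0 counts. Of the arms opposite to miR-3071 and miR-3544, miR-136-5p (mean 376 CPM), miR-136-3p (451 CPM) and miR-337-5p (388 CPM) were counted in every library, and miR-337-3p (1.79 CPM) in 38. The counts of miR-3070-5p were the same on both miR-3070 hairpins, whose 5p arms have the same sequence, and the hairpin of origin cannot be told apart there. The libraries contained 27 to 32 of the 36 arms, or 26 to 30 after thinning each to 1926108 counts.

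Before the groups are compared, a split among the libraries has to be given. The table lists 52 rows with UniSp names, as used for synthetic spike-in oligos, which held 0.0851% to 0.252% of all counts. Over the 29 oligos with more than 2000 counts in total, a principal component analysis of their log2 proportions gave a first component with 68.4% and a second with 12.6% of the variance. On component 2 the libraries fell apart at the widest gap into set A, 11 libraries with scores of 1.01 to 2.56, and set B, 29 libraries with scores of −1.37 to 0.48. Set A held TG mice 1 to 7 and 9 and WT mice 2, 3 and 4 of 3 months. Set B held all 26 mice of 6 months together with TG mouse 8 and WT mice 1 and 5 of 3 months. The oligos alone made this split, with no miRNA value used, but it was looked for after the miRNA values had been seen. The sets were also separate on component 2 with oligos above 1000 or 5000 counts, but not with those above 500. The same split appeared in 307 miRNAs from outside the locus, whose component 2 was 2.89 to 9.31 in set A and −4.63 to 0.19 in set B. What the sets differ in is not given in the labels, and since all libraries of 6 months are in set B, the age comparisons are also given within set B.

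**Figure D2:**
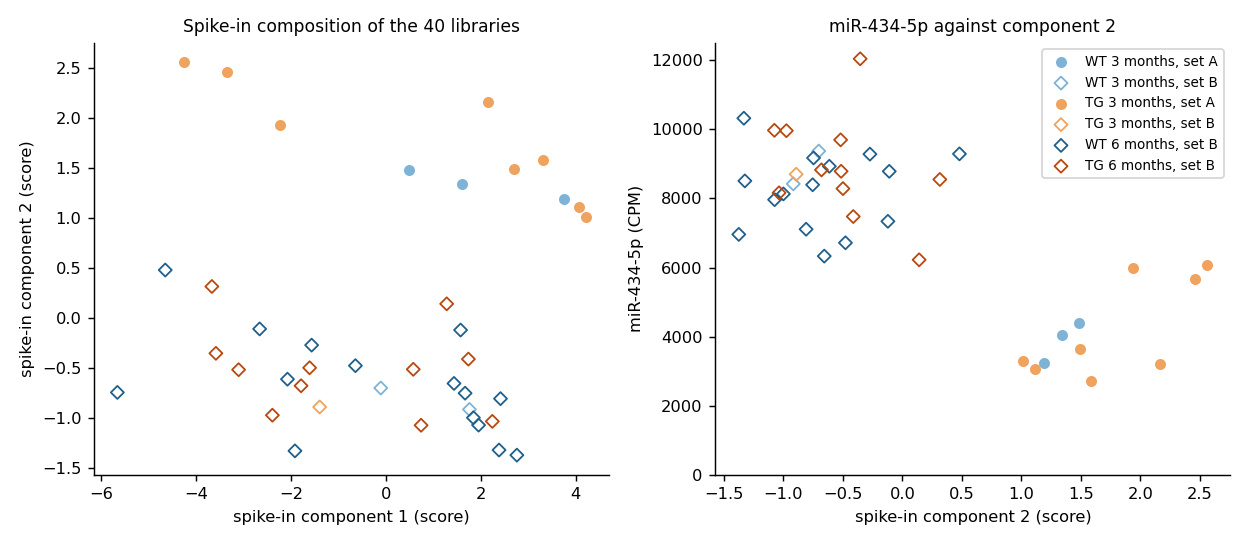
Scores of the 40 libraries on the first and second spike-in components (left), and CPM of miR-434-5p against component 2 (right), with filled circles for set A, open diamonds for set B and colours for the groups. The 3 libraries of 3 months in set B have 8421 to 9370 CPM of miR-434-5p, within the 6223 to 12041 CPM of 6 months.

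The first question was how the miRNAs differ between TG mice of 6 and 3 months. The study tested memory at 6 months and cites its authors' earlier work for the deficit at 3 months. In the edgeR fit, 4 of 27 tested member arms passed an adjusted p of 0.05 and an absolute log2FC of 0.26: miR-434-5p was higher at 6 months, and miR-341-3p, miR-493-5p and miR-136-3p were lower. This count was close to the background, since 99 of 629 miRNAs (15.7%) passed in this comparison, 47 (7.47%) as higher and 52 (8.27%) as lower at 6 months. The median log2FC of the members was −0.16 (−0.09 over all tested miRNAs, and 0.06 over 64 arms of the Mirg cluster, of which 8 passed). The study used DESeq2 with RUVSeq but does not state the kind of factor. DESeq2 with a factor from the residuals (RUVr) passed 18 of 27 members and 302 of 629 miRNAs. That is a higher share of members than of all miRNAs, a difference that was not tested. An unadjusted p under 0.05 in the edgeR fit was found for 12 of 27 members (44.4%) and for 204 of 629 miRNAs (32.4%). The other 9 arms did not pass the filter on low counts.

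miR-434-5p had 5992, 5669, 6059, 3654, 3200, 3063, 3303, 8700 and 2710 CPM in TG mice 1 to 9 of 3 months. At 6 months the lowest TG mouse had 6223, the median was 8786 and the highest had 12041 CPM. Every TG mouse of 3 months except mouse 8 was below every mouse of 6 months. The log2FC was 0.94 (SE 0.20, adjusted p = 0.00234 by edgeR's quasi-likelihood test).

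Mouse 8 was the only TG library of 3 months in set B. In WT mice 1 to 5 of 3 months, miR-434-5p had 9370, 3250, 4398, 4039 and 8421 CPM, and the high values of mice 1 and 5 are again those of set B. WT mice of 6 months had 6330 to 10321 CPM with a median of 8395. Thus the 11 libraries of set A lay at 2710 to 6059 CPM and the 3 libraries of the same age in set B at 8421 to 9370 CPM, without overlap. The test between the sets at 3 months, with genotype in the model, gave a log2FC of 1.13 (SE 0.22, 95% interval 0.66 to 1.60, adjusted p = 0.00888). Within set B, the difference between 26 mice of 6 months and 3 mice of 3 months was −0.10 (SE 0.14, 95% interval −0.38 to 0.19).

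Its opposite arm miR-434-3p ran the other way. It had a median of 4653 CPM (2096 to 5226) in TG mice of 3 months and 2317 CPM (1132 to 4202) at 6 months, with overlapping groups, and its log2FC of −0.56 (SE 0.24) did not pass (adjusted p = 0.112). TG mouse 8 had the lowest level of its group, 2096 CPM. Within set B the log2FC of miR-434-3p was −0.12 (95% interval −0.89 to 0.64).

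miR-341-3p, an arm of a Rian hairpin, was lower at 6 months. The TG mice 1 to 9 of 3 months had 744, 789, 725, 707, 847, 719, 709, 648 and 894 CPM, and those of 6 months had 390 to 667 CPM (median 539). Only TG mouse 8 overlapped with the older TG mice. The log2FC was −0.45 (SE 0.12, adjusted p = 0.0124), and within set B it was −0.06 (95% interval −0.43 to 0.31). The other arm, miR-341-5p, was near the limit of detection with means of 2.50 and 2.06 CPM and had a log2FC of −0.21 (adjusted p = 0.647).

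miR-493-5p had 122, 105, 161, 73.7, 66.2, 54.8, 65.3, 55.5 and 63.8 CPM in TG mice 1 to 9 of 3 months and 42.3 to 72.8 CPM (median 52.4) at 6 months. TG mice 1 to 4 lay above every older TG mouse, and the others overlapped with them. The log2FC was −0.59 (SE 0.20, adjusted p = 0.0458), against −0.09 within set B (95% interval −0.45 to 0.27), and the call was kept in 8 of 13 alternative fits. miR-493-3p had medians of 4.24 and 5.81 CPM at 3 and 6 months and a log2FC of 0.48 that did not pass (adjusted p = 0.161).

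miR-136-3p had 371, 344, 319, 715, 622, 796, 758, 456 and 588 CPM in TG mice 1 to 9 of 3 months and 188 to 490 CPM (median 357) at 6 months. TG mice 4 to 7 and 9 lay above every older TG mouse, while mice 1, 2, 3 and 8 lay among them. The log2FC was −0.57 (SE 0.19, adjusted p = 0.0470), and −0.08 within set B (95% interval −0.59 to 0.43), and the call was kept in 8 of 13 alternative fits. miR-136-5p had a median of 401 CPM (232 to 1028) at 3 and 222 CPM (91.6 to 714) at 6 months, and its log2FC of −0.80 (SE 0.34) did not pass (adjusted p = 0.102). Its log2FC within set B was 0.10 (95% interval −0.75 to 0.96). In the study, which used DESeq2 with RUVSeq, miR-136-5p is among the miRNAs called lower at 6 than at 3 months in TG mice.

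**Figure D3:**
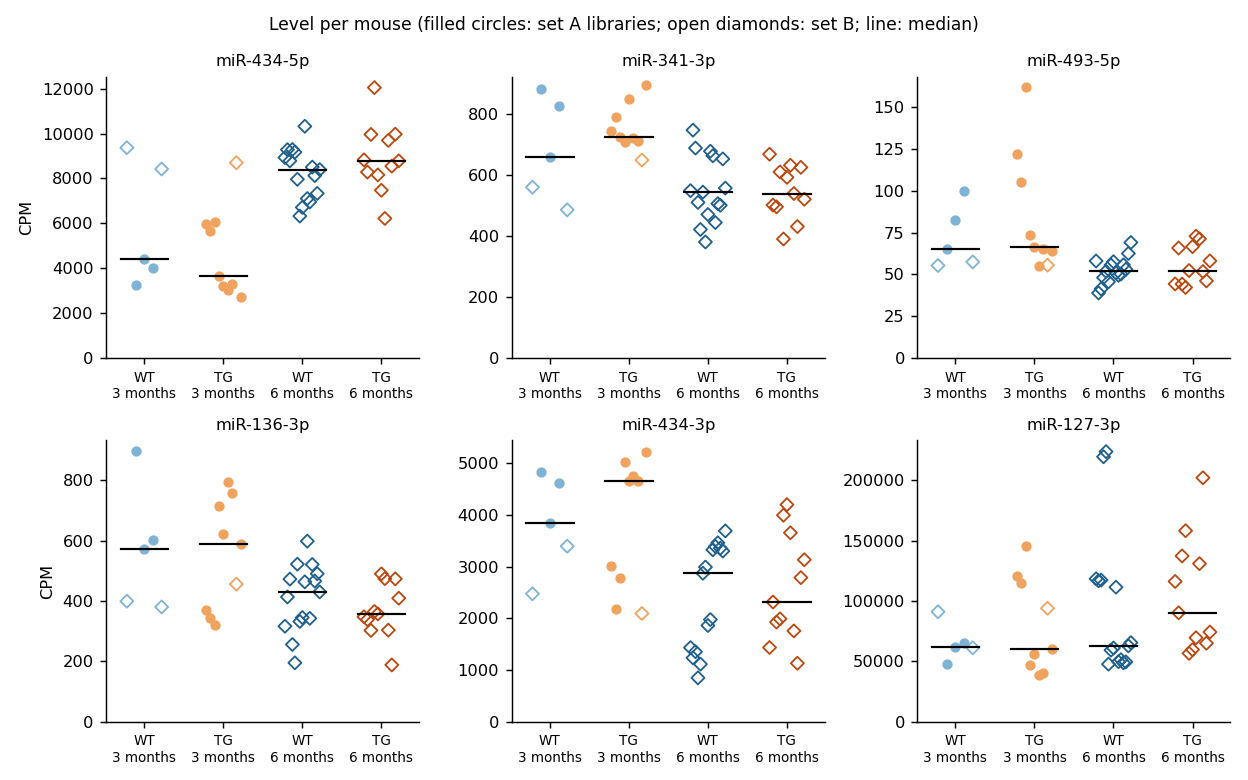
CPM per mouse of the 4 arms that passed the test in TG mice and of miR-434-3p and miR-127-3p, by group, with filled circles for set A, open diamonds for set B and lines for group medians. In the panel of miR-434-5p, the open diamonds of 3 months stand at 8421 to 9370 CPM and the filled circles at 2710 to 6059 CPM.

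The most abundant members did not pass in TG mice. miR-127-3p had 38994 to 145818 CPM (median 60512) at 3 months and 56674 to 202108 CPM (median 90243) at 6 months, with a log2FC of 0.43 (SE 0.29, adjusted p = 0.307). miR-370-3p had medians of 2031 and 3718 CPM and a log2FC of 0.12 (SE 0.32, adjusted p = 0.805). For miR-433-3p the medians were 1767 and 1336 CPM and the log2FC was −0.36 (SE 0.15, adjusted p = 0.0990). These results depended on the method. Of 13 alternative fits, the adjusted p was under 0.05 in 1 for miR-127-3p, 1 for miR-434-3p and 3 for miR-433-3p. It was so in 0 for miR-370-3p and in 2 for miR-136-5p.

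In WT mice of 6 against 3 months, 0 of 28 tested members passed (edgeR), against 1 of 660 miRNAs (0.152%). An unadjusted p under 0.05 was found for 7 of 28 members (25%) and for 102 of 660 miRNAs (15.5%). DESeq2 passed 1 of 28 members and 25 of 660 miRNAs. DESeq2 with RUVr passed 13 of 28 members and 205 of 660 miRNAs, a higher share of members than of all miRNAs, which was not tested. miR-434-5p had a log2FC of 0.47 (SE 0.19, adjusted p = 0.301), miR-341-3p −0.31 (SE 0.17, adjusted p = 0.375), miR-493-5p −0.47 (SE 0.15, adjusted p = 0.199) and miR-136-3p −0.48 (SE 0.22, adjusted p = 0.314). When WT mice 1 and 5 of set B were left out, miR-434-5p passed with 1.08 (adjusted p = 0.00130) and miR-493-5p with −0.65 (adjusted p = 0.0273), and 46 miRNAs passed in all. Without WT mice 1 and 2, whose labels conflict, 0 members passed, a count given here without that over all miRNAs. The difference between the age effects of the genotypes was tested directly, and 0 of 28 members and 0 of 699 miRNAs (0%) passed by edgeR. None of the members and 14 miRNAs (2%) had an unadjusted p under 0.05 for it, and its estimates for members were between −0.61 and 0.44 with a median SE of 0.33. A pass in TG and not in WT mice therefore does not show that the genotypes differ with age.

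TG and WT mice of the same age were compared next. At 3 months 0 of 28 members and 0 of 695 miRNAs (0%) passed by edgeR, with log2FC of −0.38 to 0.52. At 6 months 0 of 26 members and 0 of 612 miRNAs (0%) passed, with log2FC of −0.35 to 0.15 and a median SE of 0.19. No member had an unadjusted p under 0.05 at either age, against 7 miRNAs at 3 months (1.01%) and 3 at 6 months (0.49%). DESeq2 passed no member at either age, and neither did the fit of 3 months without WT mice 1 and 2 or with set A alone. For these fits the counts over all miRNAs are not given here, so they are not read as results about the members. For miR-434-5p the log2FC was −0.38 at 3 months and 0.10 at 6 months.

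Within set B, 0 of 28 members and 0 of 750 miRNAs (0%) passed between 6 and 3 months (edgeR), and 0 members and 10 miRNAs (1.33%) had an unadjusted p under 0.05. The estimates for members were −0.25 to 0.25. In simulated data of this size, 53.9% of miRNAs changed by 1 on the log2 scale were recovered, and smaller changes were not simulated. Between the sets at 3 months, 1 of 28 members (miR-434-5p) and 25 of 695 miRNAs (3.6%) passed, 19 of them as higher (2.73%) and 6 as lower (0.863%) in set B. The members' estimates were −1.25 to 1.13, and 3 of 28 members (10.7%) had an unadjusted p under 0.05, against 16% of all miRNAs. That call rested on few mice, since the adjusted p of miR-434-5p was 0.123 without TG mouse 8 and 0.0600 without WT mouse 1, with log2FC of 1.16 and 1.07.

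**Figure D4:**
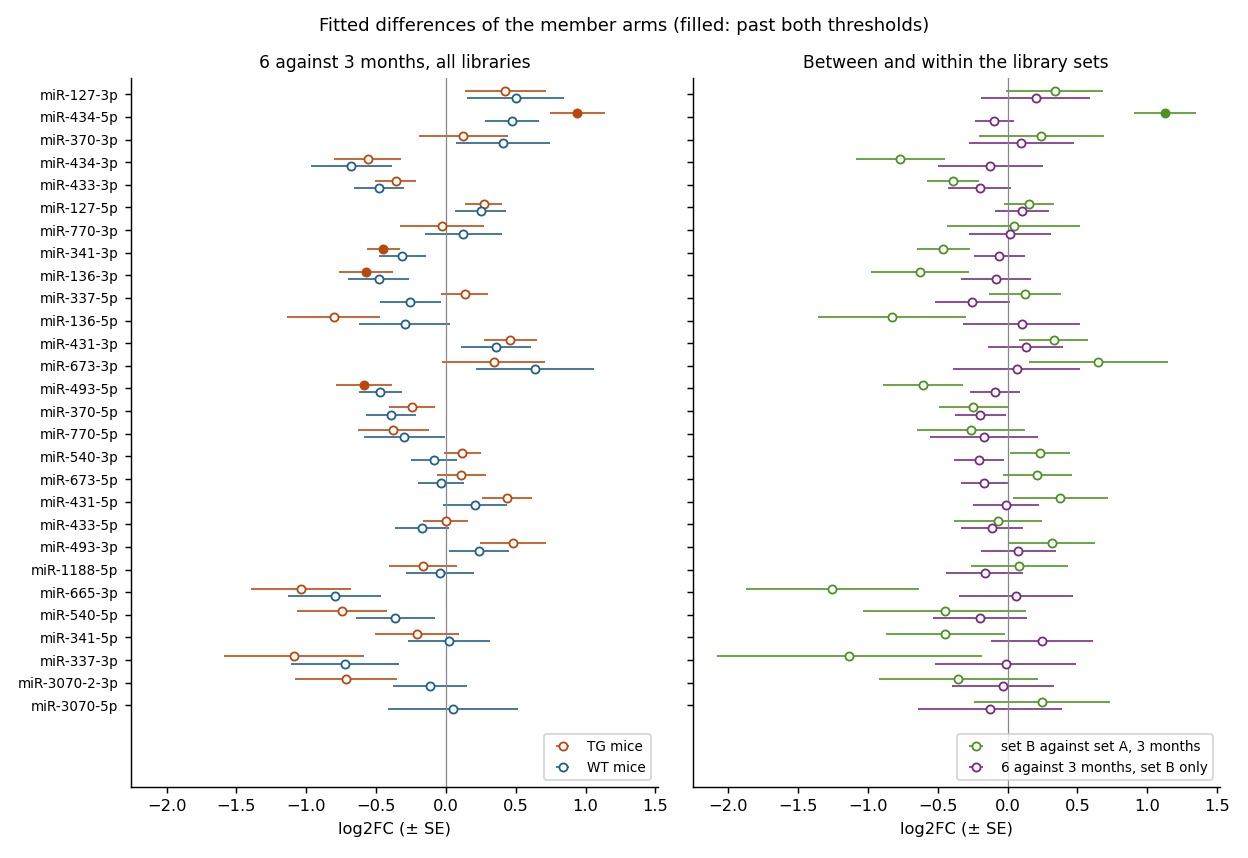
log2FC ± SE of the tested member arms, ordered by mean CPM, for 6 against 3 months in TG and WT mice (left) and between the sets at 3 months and between ages within set B (right), with filled points past both thresholds. miR-434-5p is at 0.94 in TG mice, at 1.13 between the sets and at −0.10 between ages within set B.

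Markers of other cell types were measured beside these arms in TG mice of 6 against 3 months, with their levels in CPM of the miRNA counts without TMM scaling. Both choroid plexus miRNAs (miR-204-5p and miR-211-5p) passed as higher, with a summed level of 264 to 666 CPM at 3 and 545 to 957 CPM at 6 months. Of 3 oligodendrocyte miRNAs 2 passed as lower (1112 to 2843 CPM against 629 to 1450 CPM), and of 3 tested muscle miRNAs 1 did (585 to 1348 CPM against 434 to 662 CPM). Of 7 neuronal miRNAs 2 passed as higher and 0 as lower, with 4 positive and 3 negative log2FC (summed level 180033 to 302110 CPM against 244595 to 321889 CPM). The median of miR-128-3p was 114917 CPM at 3 and 172822 CPM at 6 months, while that of miR-9-5p was 101771 and 75309 CPM and that of miR-124-3p 6425 and 1818 CPM. Of 4 vessel miRNAs 1 passed as higher, of 5 for red blood cells 1 passed as higher and 1 as lower, and of 4 for microglia and leukocytes 0 passed. Within set B none of these lists had a member that passed. At 3 months the muscle list was at 648 to 1348 CPM in set A and 327 to 585 CPM in set B, and the choroid plexus list at 264 to 691 CPM and 631 to 993 CPM. The part of these cells in the members' differences was not tested.

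The 5p to 3p ratio of a hairpin compares 2 arms of the same library and needs no scaling between libraries. Of 17 hairpins with both arms in the table, 11 had a median of at least 20 counts on each arm. The 3p arm led in 9 of them over the means of all libraries, and the 5p arm led in miR-434 and miR-493. Of 44 tests over 4 comparisons, 2 passed, both in TG mice of 6 against 3 months. The log2 ratio of miR-434 was 0.27 ± 1.103 (SD, n = 9) at 3 and 1.89 ± 0.77 (n = 11) at 6 months, a difference of 1.61 (two-sided exact permutation test, p = 0.00183, adjusted p = 0.0403). That of miR-493 was 4.16 ± 0.22 at 3 and 3.14 ± 0.64 at 6 months, a difference of −1.02 (exact permutation test, p = 0.000339, adjusted p = 0.0149). In WT mice the differences were 1.37 and −0.69, both with an adjusted p of 0.104 by the same test. Neither passed in TG mice after every library was thinned to the smallest (adjusted p = 0.0688 for both), and both passed in WT mice when mouse 1 of 3 months was left out (differences of 1.72 and −0.94, adjusted p = 0.0369 and 0.0170).

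The same ratios were compared between the library sets. For miR-434 the log2 ratio lay between −0.95 and 1.37 in set A and between 1.31 and 2.05 in the 3 libraries of 3 months in set B, and 0.77 to 3.45 at 6 months. The miR-493 ratio was 4.06 to 4.57 in set A, 2.84 to 3.67 in set B at 3 months and 2.21 to 4.04 at 6 months. Between ages within set B the ratios differed by 0.14 for miR-434 (exact permutation p = 0.793) and −0.19 for miR-493 (p = 0.5263). Between the sets at 3 months they differed by 1.78 (exact permutation p = 0.00549) and −0.90 (p = 0.00275, the smallest these 364 splits allow), each with an adjusted p of 0.0604 over 22 tests, so neither passed.

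The arms were also compared with spike-in component 1, a measure from the same libraries, in 39 relations for 28 arms and 11 arm ratios. In set B, 9 of the 11 ratios passed an adjusted permutation p of 0.05. Since the sets stand apart, relations are given within set B, whose 29 libraries had scores of −5.66 to 2.76. The log2 ratio of miR-770, which lay between −5.65 and −1.89 over all libraries, rose with the score in set B, with a Pearson r of 0.968 and a Spearman rho of 0.944 (permutation p = 1e-05, the smallest the resamples can give, adjusted p = 1.95e-05), and an r of 0.969 without the 2 libraries farthest from the median score. The ratio of miR-673 had an r of 0.949 (rho 0.930, 0.930 without the 2 farthest) and that of miR-127 an r of 0.917 (rho 0.906, 0.880 without the 2 farthest), with the same p and adjusted p. The ratio of miR-434 fell with the score, with an r of −0.933 (rho −0.876, −0.921 without the 2 farthest) and again the same p and adjusted p. For the ratio of miR-433, r was −0.436 (rho −0.516, adjusted permutation p = 0.0235), and the ratios of miR-341 (r = −0.320, rho = −0.252, adjusted permutation p = 0.111) and miR-540 (r = −0.098, rho = −0.189, adjusted permutation p = 0.690) did not pass.

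In set A, TG mice 1 to 3 had scores of −4.26 to −2.23 and the other 8 libraries 0.48 to 4.21. With this gap no single correlation is given for set A, but the sign of r was that of set B in 32 of the 39 relations. The miR-770 ratio was −5.40 to −4.63 in those 3 mice and −3.62 to −1.89 in the other 8, and the miR-434 ratio was 0.99 to 1.37 against −0.95 to 0.20. Other ratios did not run as in set B. The miR-433 ratio, which fell with the score in set B, was −8.08 to −6.98 in those 3 mice and −7.43 to −6.52 in the other 8. The miR-493 ratio, which rose in set B (r = 0.714, rho = 0.678), was 4.24 to 4.31 against 4.06 to 4.57. The same 3 mice had 105 to 161 CPM of miR-493-5p, against 54.8 to 99.99 CPM in the other 8, and 319 to 371 CPM of miR-136-3p, against 572 to 896 CPM.

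**Figure D5:**
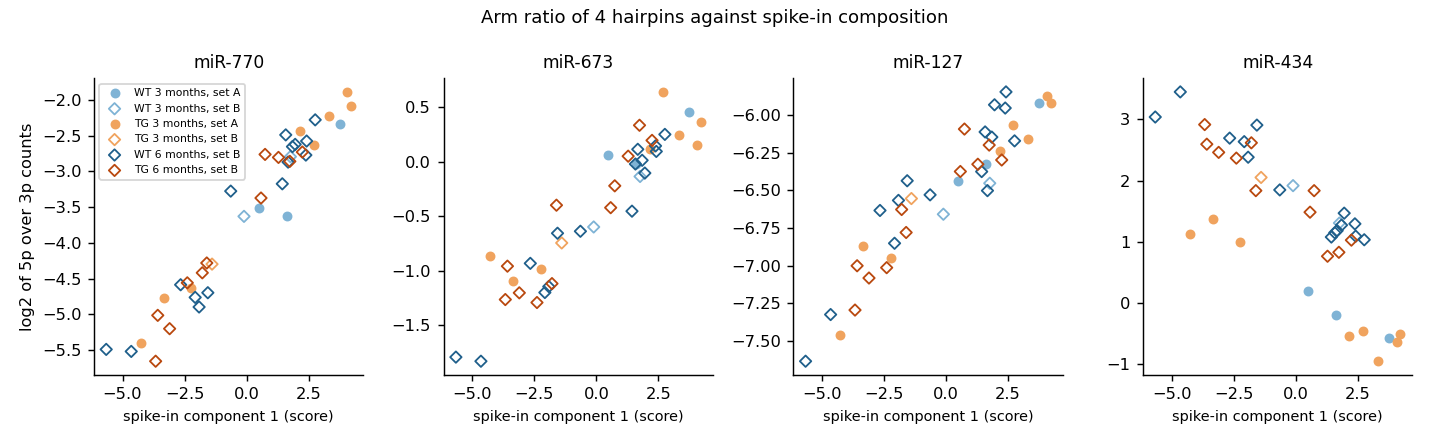
log2 of 5p over 3p counts of 4 hairpins against the score on spike-in component 1, for 40 libraries, with filled circles for set A, open diamonds for set B and colours for the groups. miR-770, miR-673 and miR-127 rise with the score and miR-434 falls, with r of 0.968, 0.949, 0.917 and −0.933 in set B.

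Single arms moved with component 1 in opposite directions in set B. miR-127-3p fell with the score (r = −0.966, rho = −0.955), as did miR-370-3p (r = −0.929, rho = −0.902) and miR-673-3p (r = −0.955, rho = −0.929). miR-434-3p rose (r = 0.912, rho = 0.871), and so did miR-136-5p (r = 0.777, rho = 0.836) and miR-337-5p (r = 0.916, rho = 0.883). Each of these 6 had a permutation p of 1e-05 for r. For miR-341-3p, r was −0.053 (rho −0.093, permutation p = 0.781). This was common to the libraries' miRNAs: with adjustment over all 699 tested miRNAs, 22 of the 28 member arms (78.6%) and 512 of all (73.2%) passed an adjusted permutation p of 0.05. An r above 0.5 was found for 10 of the 28 arms (35.7%, against 35.9% of all miRNAs). An r under −0.5 was found for 10 as well (35.7%, against 28.3% of all miRNAs). The score was also related to depth in set B (r = 0.696 with log10 miRNA counts, permutation p = 2e-05, rho = 0.628, and r = 0.540 without the 2 farthest), and the part of depth was not tested. Across the 28 arms, the r to the score in set B and the GC content of the arm had an r of −0.432, a description over arms that share the libraries.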

How the data were processed

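The authors trimmed reads (submitters' processing notes: bcl2fastq 2.20.2, FastQC 0.11.5, cutadapt 2.8) and, per the study's methods, counted them with miRDeep2 on mm10 and miRBase. The deposited raw table holds counts per mature miRNA and precursor, and the deposited normalized table the same values as RPM of all counts in the table, which were checked against the counts (largest difference 0.005). Spike-in rows were left out of the tests, and where a mature miRNA had several precursors, the row with the highest total was kept.

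Counts of each comparison's own groups were fitted with edgeR 4.0.16 (quasi-likelihood, robust, TMM, its default filter with a minimum count of 10 and total of 15), with Benjamini-Hochberg adjustment over all tested miRNAs. Passing needed both a log2FC beyond 0.26 in either direction and an adjusted p below 0.05. The study used DESeq2 with RUVSeq but does not state the factors, so these served as alternatives (DESeq2 1.42.0), with limma 3.58.1 on log2(RPM + 1). On simulated data, changes of 1 on the log2 scale were recovered in 83.1% of cases for the TG age comparison, 75.5% for WT, 49.2% and 90.5% for the genotypes at 3 and 6 months and 41.2% for the interaction. Arm ratios used a pseudocount of 0.5 and permutation tests over mice (all splits, or 100000 resamples where both groups had 10 or more), adjusted over 44 tests. Correlations used 100000 resamples. p-values measure the spread between mice as labelled.

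Named arms were those that passed any test of level or arm ratio, the other arm of their hairpin, the 5 most abundant arms, and miR-136-5p, which the study names. The members and lists were chosen with earlier results of these data known, and the library sets and the tests on them were added after seeing the data. Titles gave the groups. The numbers in the titles were not taken to pair mice, as not all pairs deviated together. Deviations correlated above 0.1 in 7 of 9 TG and 2 of 5 WT pairs across ages. Across genotypes they did so in 2 of 5 pairs at 3 and 9 of 11 pairs at 6 months. Their mean r was 0.226 in TG mice across ages (−0.038 for mice of unlike number) and 0.259 at 6 months (−0.030). It was 0.035 in WT mice across ages (0.015) and 0.007 at 3 months (0.010). In each comparison only 1 mouse correlated best with its own number.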

Additional observations from a re-analysis of the deposited data

Results flagged for a closer look

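In the groups of 5 and 9 mice, 3 values lay far from the rest of their group, out of 46 groups of values examined, of which chance marks about 1 in 20. miR-136-5p had 828 CPM in the 3-month WT mouse 2, while the other 4 mice had 279 to 382 CPM. This mouse has conflicting genotype labels, and without it the log2FC of miR-136-5p between WT mice of 6 and 3 months went from −0.30 to 0.08. The same mouse had a miR-540 log2 ratio of 5p over 3p of −2.98, against −4.46 to −4.15 in the others. The miR-493 log2 ratio of 5p over 3p was 3.67 in the 3-month TG mouse 8, against 4.06 to 4.44 in the others, and this mouse is the set B library of its group.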

How the results depend on the processing

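miR-434-5p kept its direction and its call in TG mice of 6 against 3 months under 12 of 13 alternatives, miR-341-3p under 12, and miR-136-3p and miR-493-5p under 8 each, and the exception common to all 4 was set B alone, which leaves a lone mouse of 3 months that is assumed to vary like the others. There miR-434-5p was at −0.00134, and 0 members and 0 miRNAs passed. The 4 members and 99 miRNAs that passed in TG mice became 18 and 302 with a factor from the residuals (DESeq2, RUVr), 7 and 202 with a factor from the spike-ins (RUVg), and 2 members passed without a filter on low counts. miR-136-3p also lost its call under RUVg, no filter, summed precursors and limma, and miR-493-5p under no filter, thinning, the replicate block and the mice of conflicting labels counted as TG. The causes were not tested. In WT mice, where 0 members and 1 miRNA passed, 1 member and 25 miRNAs passed with DESeq2, 13 and 205 with RUVr, 14 and 245 with the replicate block, 2 and 46 without the set B libraries of 3 months, and 5 miRNAs with RUVg. Leaving out each WT mouse of 3 months in turn gave 0 members each time and 0 to 4 miRNAs. The replicate block, on mice that share only a number, gave 5 members in TG mice. For this fit and the one without a filter, the count over all miRNAs is not given here. Their member counts are therefore not read as results about the members. Genotype and interaction counts of members stayed at 0 under all alternatives run, with up to 3 miRNAs passing under RUVr. Between the sets at 3 months, 9 members and 189 miRNAs passed with spike-in component 1 as a covariate, and leaving out TG mouse 8, WT mouse 1 or WT mouse 5 gave 0 to 1 members and 0, 10 or 14 miRNAs. After thinning, 0 arm ratios passed in TG mice (adjusted p = 0.0688 for miR-434 and miR-493), and in WT mice 0 to 2 passed when a mouse of 3 months was left out, the 2 without mouse 1.

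Depth limits the rare arms most: in the shallowest library 3 counts are 1.56 CPM before TMM scaling, above the TMM-scaled mean of miR-3070-5p.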
